A study of Homo sapiens with 6 samples.

Results

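The genes described here are the heat shock proteins and J-domain co-chaperones of NCI-H1703 cells, which the labels name as a squamous cell carcinoma line of human lung. They were chosen by symbol: every gene whose name begins with DNAJ, the numbered HSPA and HSPB genes, HSPH1, the HSP90A genes, HSPD1, HSPE1, BAG1 to BAG6, STIP1 and HSF1, with HSPA5 left out. This gave 76 of the 17534 genes in the deposited table. RNA sequencing compared 3 control libraries with 3 libraries of cells in which a short hairpin RNA (shRNA) targeted PPM1G, which encodes a metal-dependent protein phosphatase of the nucleus. Controls have the genotype Sh-NC, an abbreviation that the labels leave unexplained, while the study's design text speaks of wild-type cells. All libraries came from the same line, grown as untreated flask cultures as far as the labels say. Neither the number of hairpins nor the culture behind each library is stated in the sources, so the p-values reflect the spread among these libraries alone, and that spread may be technical.

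HSP70 proteins bind exposed hydrophobic stretches of unfolded clients, in a cycle driven by ATP. J-domain proteins (DNAJA, DNAJB and DNAJC) bring clients and start ATP hydrolysis, and exchange factors such as several BAG proteins and HSP110 (HSPH1) let the client go. Clients that need further maturation, among them kinases and steroid receptors, are passed through the bridging protein STIP1 to HSP90. HSF1 is the transcription factor that drives many of these genes when proteins unfold, and it binds heat shock elements made of alternating GAA and TTC units. Many tumour cells are known to depend on high chaperone levels.

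Library totals ranged from 31337553 to 35838246 counts. PPM1G measured 332.9, 307.7 and 323.8 CPM (counts scaled to library size with TMM factors) in the control libraries and 181.7, 194.0 and 188.1 CPM in the shRNA libraries, a log2 fold change of -0.77 (SE 0.03). Of the 3 squamous markers in the table, TP63 fell from a mean of 1.54 CPM in controls to 0.836 CPM in shRNA libraries (log2 fold change -0.89, SE 0.29) and SOX2 from 22.8 to 10.7 CPM (-1.09, SE 0.08). KRT6A had 2 counts in all control libraries and 0 in the shRNA libraries, so TP63 and KRT6A were low or near absent. The 3 summed to 22.9 to 26.3 CPM in controls and 11.0 to 12.1 CPM in shRNA libraries. The epithelial markers EPCAM, KRT8 and KRT18 summed to 316 to 337 CPM in controls and 299 to 318 CPM in shRNA libraries. The leukocyte markers PTPRC and CD3E had at most 10 counts per group, whereas CD68, which is not limited to leukocytes, averaged 1266 CPM in controls and 566 CPM in shRNA libraries. The 2 endothelial markers summed to 5.02 to 6.94 CPM in controls and 3.15 to 4.16 CPM in shRNA libraries, with PECAM1 falling from a mean of 5.31 to 1.08 CPM and VWF rising from 0.524 to 2.58 CPM. The 2 fibroblast markers, nearly all COL1A1, summed to 148 to 165 CPM and 341 to 350 CPM. The part of these shifts in the results below was not tested. In bulk RNA, fewer cells of a type and less RNA per cell cannot be told apart.

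Most of the chaperone transcripts were at different levels in the PPM1G shRNA libraries, and the most abundant ones were lower. Of the 76 members, 68 had enough counts to be tested, and 38 fell and 18 rose at an adjusted p under 0.05 (edgeR's quasi-likelihood F-test, Benjamini-Hochberg over 13060 genes). The share of members called was 82.4%, next to 82.9% of all tested genes, so the members were not called more often than genes at large. Falls made up 41.3% of all tested genes and rises 41.5%. Falls of at least 2-fold were seen in 9 members (12.4% of all tested genes) and rises of at least 2-fold in 6 (11.8%). Control and shRNA ranges were separate in 57 of the 68 tested members, next to 83.7% of all tested genes. The median log2 fold change of the tested members was -0.24, and that of all tested genes was 0.01.

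The split depended on the scaling. With plain library totals in place of TMM factors the median of all genes rose by 0.10 on the log2 scale, and 27 members rose and 35 fell. The members whose calls changed lay close to 0, and they are named with their families below. The other 8 members (HSPA12B, HSPB2, HSPB6, HSPB7, HSPB9, DNAJA4, DNAJB3 and DNAJC5G) had at most 6 counts in all libraries of a group, which is too few to compare, and DNAJB3 had 0 counts in every library.

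**Figure D1:**
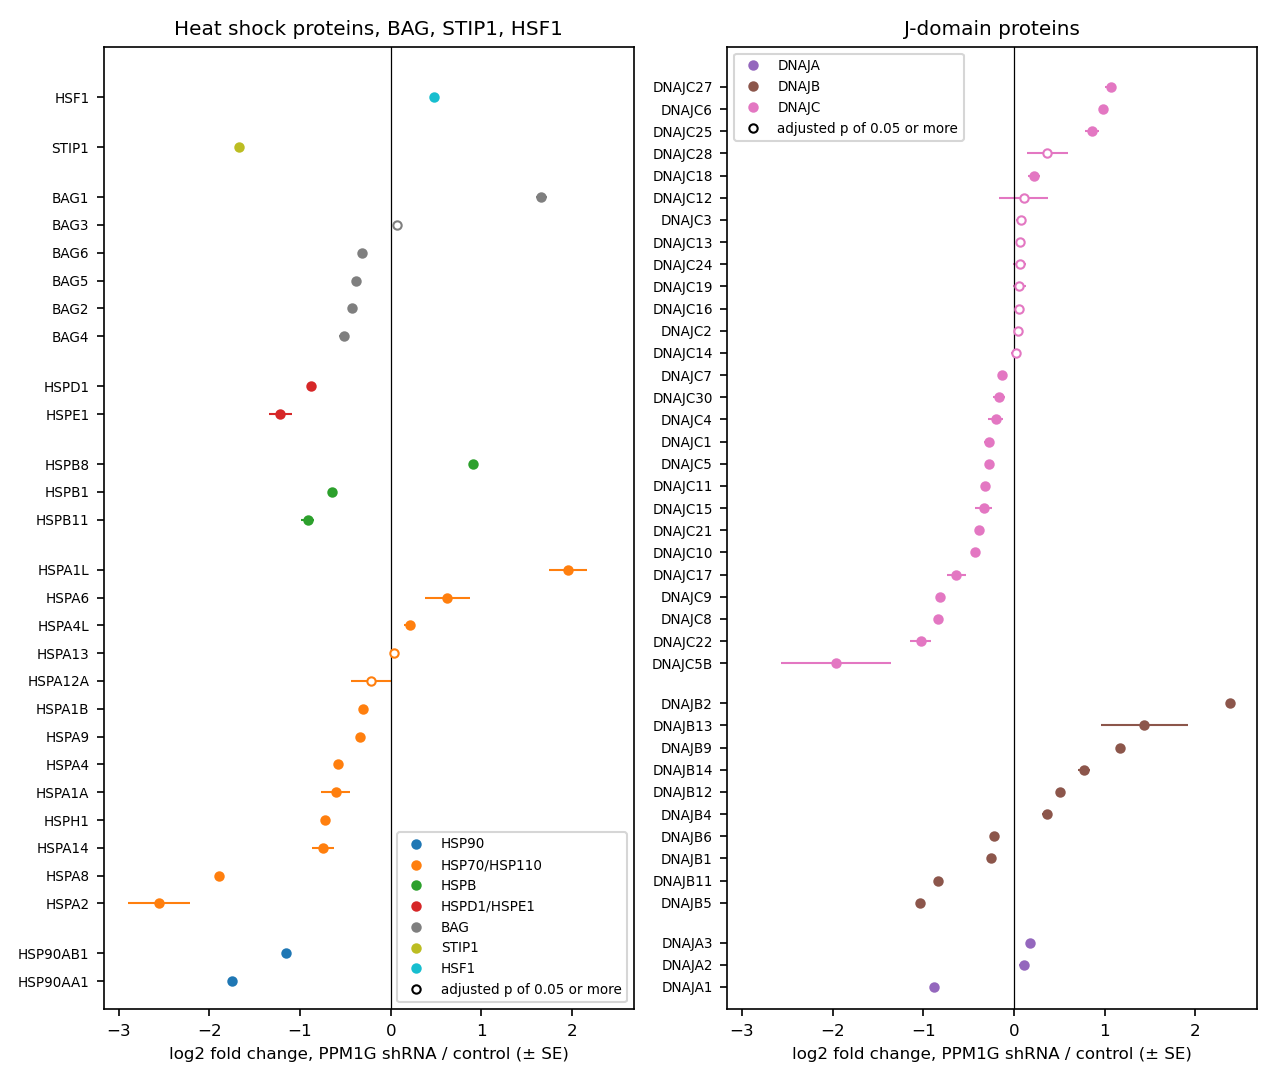
Log2 fold change of PPM1G shRNA over control libraries for the 68 tested members, 1 row per gene, coloured by family, with bars for the standard error and open points for genes with an adjusted p of 0.05 or more. HSP90AA1, HSP90AB1, HSPA8 and STIP1 lie below -1, while DNAJB2 (2.38) and BAG1 (1.66) lie farthest to the right among members averaging at least 5 CPM.

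As a share of all transcripts, the members fell in every shRNA library. They took 1.60%, 1.56% and 1.51% of the summed FPKM (a level scaled by gene length and library total) in the control libraries, and 0.988%, 0.980% and 0.982% in the shRNA libraries. Most of this came from HSP90AA1, HSP90AB1 and HSPA8, which together took 0.816%, 0.789% and 0.753% of the summed FPKM in controls and 0.288%, 0.290% and 0.290% in shRNA libraries. No control library came near the shRNA libraries in either share.

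Both cytosolic HSP90 genes fell. HSP90AA1 (Entrez 3320; chr14:102080742-102139749, GRCh38), the stress-inducible HSP90 alpha, measured 2903, 2846 and 2747 CPM in the control libraries and 846, 848 and 841 CPM in the shRNA libraries. Every shRNA library was below every control library, and the level was 3.35-fold lower (log2 fold change -1.74, SE 0.03, adjusted p = 9.38e-33 by edgeR). HSP90AB1 (Entrez 3326; chr6:44246194-44253883), the constitutive HSP90 beta, measured 2002, 1942 and 1912 CPM in controls and 864, 884 and 876 CPM in shRNA libraries. Its groups did not overlap either, and it was 2.23-fold lower (log2 fold change -1.16, SE 0.03, adjusted p = 3.86e-28 by edgeR). HSP90AA1 shares its locus with the coding gene WDR20, as 24 members do with some coding gene (DNAJB1 with TECR and BAG6 with APOM among them), and without a stated strand setting the reads of overlapping genes cannot be told apart.

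The balance between the paralogs also shifted. HSP90AA1 made up 51.3%, 51.5% and 51.0% of the summed FPKM of both HSP90 genes in the control libraries, and 41.5%, 41.0% and 41.1% in the shRNA libraries. The mean share was 51.3% ± 0.245 (SD, n = 3) in controls and 41.2% ± 0.288 (SD, n = 3) in shRNA libraries, a difference of -10.1 percentage points (exact two-sided permutation test, p = 0.1, the smallest that 3 against 3 libraries allow). HSP90 beta was thus the larger transcript pool in the shRNA libraries, per length, and the smaller one in controls.

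STIP1 (Entrez 10963; chr11:64185272-64204543), which bridges HSP70 and HSP90, fell with them. It measured 456.9, 442.7 and 446.0 CPM in controls and 144.0, 146.2 and 132.2 CPM in shRNA libraries, with no overlap. The level was 3.19-fold lower (log2 fold change -1.67, SE 0.03, adjusted p = 6.94e-29 by edgeR).

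Among the 14 HSP70 and HSP110 genes, 13 were tested, 8 fell and 3 rose, with a median log2 fold change of -0.34. The share called was 84.6% and the share that fell 61.5%, next to 82.9% and 41.3% of all tested genes. HSPA8 (Entrez 3312; chr11:123057489-123062462), the constitutive cytosolic HSC70 that also strips clathrin from vesicles, was the most abundant member per length in controls. It measured 2985, 2820 and 2748 CPM in the control libraries and 771, 764 and 767 CPM in the shRNA libraries. The shRNA libraries lay within a narrow band far below the controls, and the level was 3.72-fold lower (log2 fold change -1.89, SE 0.03, adjusted p = 1.49e-32 by edgeR). Of the 4 members with a complete heat shock element in the promoter window, HSPA8 alone had 2, at -230 and -55 from the start used. Both elements lie within the annotated locus, after its outermost start, because the start used is not the outermost one. They stand in capitals in the RefSeq sequence of chr11:123062159-123062386 (GRCh38.p14, minus strand), printed 5′ to 3′ because it is the promoter of the most abundant transcript that fell:
HSPA8: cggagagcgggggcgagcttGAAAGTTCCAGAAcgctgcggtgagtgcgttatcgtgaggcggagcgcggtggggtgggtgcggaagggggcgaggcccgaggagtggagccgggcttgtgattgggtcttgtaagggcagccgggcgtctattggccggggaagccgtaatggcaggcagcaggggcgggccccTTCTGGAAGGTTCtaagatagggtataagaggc

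HSPA8 also lost weight within its own family. It made up 83.6%, 83.2% and 82.9% of the summed FPKM of the HSPA members and HSPH1 in controls, and 63.9%, 63.5% and 63.5% in shRNA libraries. The mean share was 83.2% ± 0.315 (SD, n = 3) in controls and 63.6% ± 0.258 (SD, n = 3) in shRNA libraries, a difference of -19.6 percentage points (exact two-sided permutation test, p = 0.1, the smallest possible). The other abundant HSP70 genes changed by less. HSPA9, the mitochondrial HSP70, averaged 442.5 ± 10.4 CPM (SD, n = 3) in controls and 349.4 ± 0.797 CPM in shRNA libraries (log2 fold change -0.34, SE 0.03). The exchange factors HSPH1 and HSPA4 fell by 0.73 (SE 0.03) and 0.59 (SE 0.03) on the log2 scale, and their testis-enriched relative HSPA4L rose by 0.21 (SE 0.06).

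**Figure D2:**
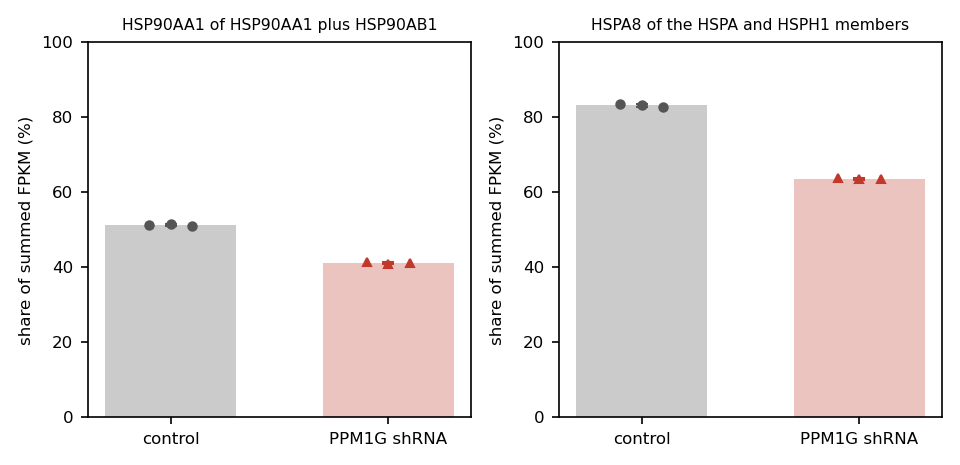
Share of HSP90AA1 in the summed FPKM of both HSP90 genes (left) and of HSPA8 in the summed FPKM of the HSPA members and HSPH1 (right), in percent, with 1 point per library and the group means. The 3 shRNA libraries lie below the 3 control libraries in both panels, by 10.1 and 19.6 percentage points on average.

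The stress-inducible HSP70 genes did not move as one. HSPA1B had 2275, 2394 and 2403 counts in controls and 1732, 2007 and 2198 counts in shRNA libraries, and fell by 0.30 on the log2 scale (SE 0.05, adjusted p = 5.31e-07 by edgeR). Its near-copy HSPA1A had 153, 179 and 234 counts in controls and 110, 121 and 153 in shRNA libraries, and fell by 0.61 (SE 0.16). Of the 100-base windows of their transcripts, 72.7% of those of HSPA1B and 67.3% of those of HSPA1A occurred in another gene too, so the division of reads between them is uncertain. Their promoter windows were identical at 277 of 299 aligned positions (92.6%). HSPA6, the strictly inducible HSP70, was barely transcribed, with 63, 29 and 67 counts in controls and 80, 78 and 95 in shRNA libraries. It rose by 0.62 (SE 0.25, adjusted p = 0.0228 by edgeR), and the low second control library weighed on this. Without that library the log2 fold change was 0.33 (adjusted p = 0.175). Without shRNA library 1 or 3 the adjusted p was 0.0593 or 0.0667, and 27.6% of its windows are shared with another gene.

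HSPA1L and HSPA2, both known for their roles in the testis, were near the floor and moved in opposite directions. HSPA1L had 47, 32 and 32 counts in controls and 130, 172 and 143 in shRNA libraries, with no overlap, and rose 3.87-fold (log2 fold change 1.95, SE 0.21). HSPA1L lies on the minus strand of chromosome 6, head to head with HSPA1A on the plus strand. Their loci are 259 bases apart, and their promoter windows overlap. HSPA2 had 67, 54 and 73 counts in controls and 4, 13 and 17 in shRNA libraries, a log2 fold change of -2.56 (SE 0.34) that ranked first in size among all members. HSPA14, a ribosome-associated HSP70, fell by 0.75 (SE 0.12). HSPA13, of the endoplasmic reticulum, and HSPA12A were not called (log2 fold changes 0.04 and -0.22), and with plain library totals HSPA13 was called at 0.14.

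Of the small heat shock proteins, which hold unfolding proteins in a soluble state without ATP, 3 of 7 were expressed enough to test. HSPB1 (HSP27; Entrez 3315; chr7:76302673-76304292) measured 640.9, 628.3 and 646.9 CPM in controls and 423.3, 393.3 and 407.0 CPM in shRNA libraries. It was 1.57-fold lower (log2 fold change -0.65, SE 0.03, adjusted p = 7.26e-20 by edgeR), without overlap. HSPB8, which acts with BAG3 in selective autophagy, went the other way, from 46.2 ± 1.28 CPM (SD, n = 3) in controls to 86.9 ± 0.741 CPM (log2 fold change 0.91, SE 0.04). HSPB11, a component of intraflagellar transport named for its fold, fell by 0.92 (SE 0.07).

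Both genes of the mitochondrial chaperonin fell. HSPD1 (HSP60; Entrez 3329; chr2:197486584-197500274) measured 474.4, 450.4 and 446.1 CPM in controls and 245.5, 248.0 and 251.2 CPM in shRNA libraries (log2 fold change -0.88, SE 0.03, adjusted p = 3.49e-23 by edgeR). HSPE1 (HSP10, the lid of the HSP60 barrel; Entrez 3336; chr2:197500379-197503449) measured 7.73, 8.04 and 8.01 CPM in controls and 3.46, 3.51 and 3.26 CPM in shRNA libraries (log2 fold change -1.22, SE 0.13, adjusted p = 1.74e-10 by edgeR). The groups did not overlap for either gene. These genes are neighbours with 104 bases between their loci. RefSeq lists 22 named pseudogenes of HSPD1 and 28 of HSPE1, and 12.9% of the windows of the HSPE1 transcript occur in another gene, so the low level listed for HSPE1 is uncertain.

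**Figure D3:**
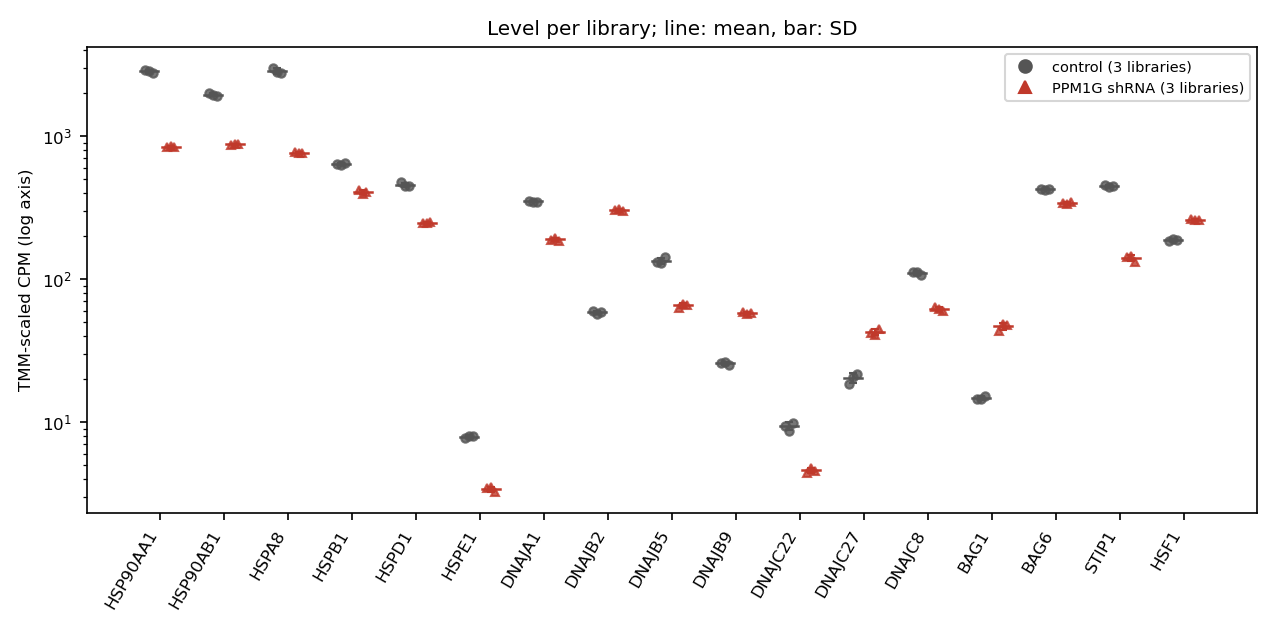
TMM-scaled CPM on a log axis for 17 members, with 1 point per library, the group mean as a line and the SD as a bar. Control and shRNA libraries separate in each of these genes, with DNAJB2, DNAJB9, DNAJC27, BAG1 and HSF1 higher in the shRNA libraries and the other 12 lower.

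Genes of each J-domain class moved in both directions. Of the 43 J-domain proteins listed, 40 were tested, 19 fell and 12 rose, and the median was 0.03 on the log2 scale. The share called was 77.5%, next to 82.9% of all tested genes. Falls made up 47.5% and rises 30%, next to 41.3% and 41.5% of all tested genes. In class A, the general cytosolic co-chaperone DNAJA1 (Entrez 3301; chr9:33025273-33039907) measured 351.2, 347.7 and 348.7 CPM in controls and 189.2, 194.7 and 185.4 CPM in shRNA libraries (log2 fold change -0.88, SE 0.03, adjusted p = 4.18e-23 by edgeR). Its groups were far apart. The mitochondrial DNAJA3 rose by 0.17 (SE 0.04). DNAJA2 rose by 0.11 (SE 0.05, adjusted p = 0.0437 by edgeR) with overlapping groups. Its adjusted p was 0.0845 without control library 2, 0.233 without control library 3, 0.0837 without shRNA library 2 and 0.168 without shRNA library 3. With all libraries it was 0.0524 with RLE size factors and 0.116 with DESeq2, and plain library totals gave a log2 fold change of 0.21.

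Class B held the J-domain gene with the clearest rise. DNAJB2 (Entrez 3300; chr2:219279366-219286895), whose ubiquitin-interacting motifs link HSP70 clients to the proteasome, measured 59.5, 56.8 and 59.3 CPM in controls and 303.4, 311.2 and 298.8 CPM in shRNA libraries. The rise was 5.20-fold (log2 fold change 2.38, SE 0.03, adjusted p = 5.79e-33 by edgeR), and all shRNA libraries were far above all controls. Per length it went from 29.4 FPKM, below DNAJA1 at 145.4 FPKM, to 164.0 FPKM, above DNAJA1 at 84.7 FPKM. Its promoter held neither a 3-unit nor a 2-unit heat shock element, and the 250 bases before its start (chr2:219279116-219279365, GRCh38.p14, plus strand, RefSeq) are printed because it rose most among members averaging at least 5 CPM:
DNAJB2: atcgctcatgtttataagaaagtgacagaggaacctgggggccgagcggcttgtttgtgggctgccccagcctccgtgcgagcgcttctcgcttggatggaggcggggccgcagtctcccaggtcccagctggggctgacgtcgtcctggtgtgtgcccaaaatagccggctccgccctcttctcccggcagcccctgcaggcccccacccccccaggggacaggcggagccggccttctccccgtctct

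Of the 10 class B genes tested, DNAJB2 included, 6 rose and 4 fell. The share called was 100%, next to 82.9% of all tested genes. Rises made up 60% and falls 40%, next to 41.5% and 41.3% of all tested genes. DNAJB9 (Entrez 4189; chr7:108569874-108574850), an endoplasmic reticulum protein that restrains the stress sensor IRE1, measured 25.9, 26.2 and 25.3 CPM in controls and 59.2, 56.7 and 58.4 CPM in shRNA libraries (log2 fold change 1.17, SE 0.05, adjusted p = 3e-20 by edgeR). DNAJB12 and DNAJB14, which are anchored in the membrane of that compartment, rose by 0.51 (SE 0.03) and 0.77 (SE 0.06). DNAJB11, which assists HSP70 in its lumen, fell by 0.83 (SE 0.04), although 15.4% of its windows occur in another gene. DNAJB5 (Entrez 25822; chr9:34989745-34998900) measured 131.0, 130.5 and 142.0 CPM in controls and 63.1, 67.4 and 66.4 CPM in shRNA libraries (log2 fold change -1.03, SE 0.04, adjusted p = 4.13e-21 by edgeR). The groups of DNAJB9 and of DNAJB5 did not overlap.

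The heat-inducible HSP40 gene DNAJB1 fell by 0.25 (SE 0.03), from 223.3 ± 1.27 CPM (SD, n = 3) to 187.4 ± 4.18 CPM. The aggregation suppressor DNAJB6 fell by 0.22 (SE 0.04). With plain library totals these falls were 1.5 times smaller or more, at -0.15 and -0.12, and both genes were still called. DNAJB4 rose by 0.36 (SE 0.05). DNAJB13, a protein of the axoneme of cilia and sperm tails, had only 9, 4 and 5 counts in controls and 16, 15 and 20 in shRNA libraries (log2 fold change 1.44, SE 0.48).

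In class C, where the J domain is joined to many other domains, 14 of the 27 tested genes fell, 4 rose and 9 were not called. The share called was 66.7%, below the 82.9% of all tested genes. Falls made up 51.9% and rises 14.8%, next to 41.3% and 41.5% of all tested genes. The most abundant class C member per length in controls was DNAJC8 (Entrez 22826), a spliceosome-associated protein, with 112.8, 111.7 and 107.2 CPM in controls and 63.9, 62.0 and 59.9 CPM in shRNA libraries. It fell by 0.84 on the log2 scale (SE 0.04, adjusted p = 8.58e-19 by edgeR). The histone chaperone DNAJC9 fell to a like extent, from 111.2 ± 2.04 CPM (SD, n = 3) to 63.4 ± 0.582 CPM (log2 fold change -0.81, SE 0.04). For both genes the lowest control library was well above the highest shRNA library.

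DNAJC22 (Entrez 79962) measured 9.48, 8.74 and 9.95 CPM in controls and 4.42, 4.81 and 4.58 CPM in shRNA libraries (log2 fold change -1.03, SE 0.11, adjusted p = 8.65e-10 by edgeR). DNAJC27 (Entrez 51277), which joins a Rab-like GTPase to a J domain, measured 18.6, 20.8 and 21.7 CPM in controls and 42.0, 40.8 and 45.0 CPM in shRNA libraries (log2 fold change 1.06, SE 0.06, adjusted p = 1.44e-16 by edgeR). Neither gene showed overlap. DNAJC6, the auxilin that recruits HSC70 to clathrin coats, rose from 46.5 ± 2.59 CPM (SD, n = 3) to 91.7 ± 0.887 CPM (log2 fold change 0.98, SE 0.05) while HSPA8 itself fell.

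DNAJC25 and DNAJC18 rose by 0.86 (SE 0.07) and 0.22 (SE 0.06). DNAJC5B fell by 1.97 (SE 0.60) on only 12, 12 and 11 counts in controls and 1, 4 and 4 in shRNA libraries. The other falls in class C lay between -0.64 (DNAJC17) and -0.14 (DNAJC7), among them DNAJC10, a disulfide reductase of the endoplasmic reticulum (-0.43), DNAJC21, of ribosome assembly (-0.39), and DNAJC5, the cysteine string protein of vesicles (-0.28). The calls of DNAJC30, DNAJC4 and DNAJC7 turned on single libraries or on the scaling. DNAJC30 had an adjusted p of 0.0663 without control library 1 and 0.164 without shRNA library 3. DNAJC4 had 0.0808 without control library 3 and 0.0888 without shRNA library 2. With plain library totals DNAJC4, DNAJC7 and DNAJC30 were not called. DNAJC15 was not called with limma on log2(FPKM + 0.1) (log2 fold change -0.21, adjusted p = 0.06 by limma).

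The 9 class C genes that were not called were DNAJC2, DNAJC3, DNAJC12, DNAJC13, DNAJC14, DNAJC16, DNAJC19, DNAJC24 and DNAJC28. With plain library totals 7 of them were called as higher, at log2 fold changes of 0.12 to 0.17. All 9 were above 0 in the reported fit, with no call. DNAJC13, an endosomal protein, was called without control library 1 (log2 fold change 0.10, adjusted p = 0.00881), while its log2 fold change with all libraries was 0.07. DNAJC28 stood at 0.37 (adjusted p = 0.133 by edgeR) with all libraries, and ranged from 0.18 without control library 3 to 0.62 without control library 1, where it was called (adjusted p = 0.0201). It was also called by limma on log2(FPKM + 1) (adjusted p = 0.0259) and on log2(FPKM + 0.1) (adjusted p = 0.0294). DNAJC14 was at 0.02 and moved to -0.02 without control library 2 and to -0.001 without control library 3.

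Of the 6 BAG genes, several of which release clients from HSP70, BAG1 rose, 4 fell and BAG3 was not called. The share called was 83.3% and the share that fell 66.7%, next to 82.9% and 41.3% of all tested genes. BAG1 (Entrez 573; chr9:33252471-33264708), which also carries a ubiquitin-like domain that docks to the proteasome, measured 14.7, 14.5 and 15.3 CPM in controls and 43.7, 48.5 and 48.0 CPM in shRNA libraries. It rose 3.16-fold (log2 fold change 1.66, SE 0.06, adjusted p = 7.14e-22 by edgeR), with no overlap. BAG6 (Entrez 7917), which guards membrane proteins on their way to insertion, was the most abundant BAG gene per length, with 423.7, 423.1 and 425.9 CPM in controls and 340.5, 334.5 and 347.8 CPM in shRNA libraries (log2 fold change -0.32, SE 0.03, adjusted p = 3.92e-12 by edgeR).

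BAG2, BAG4 and BAG5 fell by 0.42 (SE 0.05), 0.52 (SE 0.05) and 0.38 (SE 0.04). BAG3, the autophagy-linked and heat-inducible member, averaged 120.3 ± 2.69 CPM (SD, n = 3) in controls and 125.8 ± 4.68 CPM in shRNA libraries (log2 fold change 0.06, adjusted p = 0.105 by edgeR). It was called as higher with plain library totals (0.16) and without shRNA library 2 (0.10, adjusted p = 0.0377).

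HSF1 (Entrez 3297) rose. It measured 185.3, 189.7 and 188.6 CPM in controls and 262.1, 259.0 and 260.3 CPM in shRNA libraries, a rise of 1.39-fold (log2 fold change 0.47, SE 0.03, adjusted p = 1.02e-15 by edgeR) without overlap. Transcript levels do not show how much HSF1 protein was active. A list of 14 members was taken as heat-inducible from textbook knowledge: HSPA1A, HSPA1B, HSPA6, HSPA8, HSPH1, HSP90AA1, HSP90AB1, HSPB1, HSPD1, HSPE1, DNAJA1, DNAJB1, BAG3 and STIP1. It holds HSPA8 and HSP90AB1, which are also expressed constitutively at high levels. Of these 14, 12 fell, HSPA6 rose and BAG3 was not called, and the median of the list was -0.80 on the log2 scale. The share called was 92.9% and the share that fell 85.7%, next to 82.9% and 41.3% of all tested genes. In this list 5 genes fell at least 2-fold (HSPA8, HSP90AA1, STIP1, HSPE1 and HSP90AB1). The other 62 members had 54 tested, of which 26 fell and 17 rose, with a median of -0.06. The list was chosen with earlier results of these data known, so this contrast is descriptive and was not tested.

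Heat shock elements were looked for in the RefSeq promoter windows (250 bases before to 50 after the start) of the 66 members that had one. The 3-unit element was searched on both strands as GAANNTTCNNGAA and TTCNNGAANNTTC, and the 2-unit form, which every 3-unit match contains, as GAANNTTC and TTCNNGAA. A 3-unit element stood in 4 of 66 members (6.06%) and in 52 of 14030 promoters of the table's genes (0.371%). By call, it stood in 3 of the 33 members that fell, 1 of the 17 that rose and 0 of the 11 that were not called. The 2-unit form stood in 13 members (19.7%), next to 10.9% of all promoters, and in 6 of the 14 heat-inducible members. A missing match says only that these letters are not in the window. The window of HSP90AA1, for example, sits at the outermost start annotated for its locus.

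The elements outside HSPA8 are printed in capitals with their flanks (RefSeq, GRCh38.p14, all plus strand) because they are the other 3-unit matches among the members. DNAJA1 fell by 0.88 and DNAJB6 by 0.22 on the log2 scale. HSPA6 rose on few counts, and its call was lost without control library 2. The printed stretches lie at chr9:33025256-33025302, chr7:157336853-157336905 and chr1:161524446-161524498. The element begins at 4, -131 and -74 from the start, so that of DNAJA1 lies after it. DNAJA1 and DNAJB6 hold the form that begins with GAA, and HSPA6 the form that begins with TTC. Whether the elements bear on these changes was not tested. HSPA1A (the 250 bases before its start, chr6:31815293-31815542) has a 2-unit match in capitals and is printed beside them as a heat-inducible gene without a 3-unit match.
DNAJA1: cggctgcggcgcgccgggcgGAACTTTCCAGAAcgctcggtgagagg
DNAJB6: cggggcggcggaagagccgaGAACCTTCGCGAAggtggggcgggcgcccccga
HSPA6: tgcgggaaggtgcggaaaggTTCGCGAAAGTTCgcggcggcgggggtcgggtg
HSPA1A: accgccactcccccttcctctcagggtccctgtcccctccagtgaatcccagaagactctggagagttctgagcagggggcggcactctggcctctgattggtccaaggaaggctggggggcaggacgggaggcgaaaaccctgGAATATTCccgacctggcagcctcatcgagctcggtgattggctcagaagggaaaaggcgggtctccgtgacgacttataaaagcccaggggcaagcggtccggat

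By compartment, neither organelle list moved as one. Both lists were drawn up by hand, and other members may also belong to these compartments. Of the 8 members listed for the endoplasmic reticulum, 3 rose (DNAJB9, DNAJB12 and DNAJB14) and 3 fell (DNAJB11, DNAJC10 and DNAJC1). DNAJC3 and HSPA13 were not called, and the median log2 fold change was 0.06. The share called was 75%, next to 82.9% of all tested genes. Falls and rises made up 37.5% each, next to 41.3% and 41.5% of all tested genes. Of the 8 members listed as mitochondrial, 6 fell (HSPE1, HSPD1, HSPA9, DNAJC15, DNAJC11 and DNAJC30). DNAJA3 rose and DNAJC19 was not called, and the median was -0.33. In this list the share called was 87.5% and the share that fell 75%, next to 82.9% and 41.3% of all tested genes.

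The order of levels per length changed at the top. In controls the order by mean FPKM was HSPA8 (1205 ± 50.8), HSPB1 (793.8 ± 10.4), HSP90AA1 (694.8 ± 19.5), HSP90AB1 (660.0 ± 15.4) and HSPD1 (187.0 ± 6.11; all SD, n = 3). HSP90AA1 and HSP90AB1 differed by less than the sum of their SDs. In shRNA libraries the order was HSPB1 (543.3 ± 18.8), HSPA8 (347.7 ± 0.972), HSP90AB1 (317.0 ± 4.36) and HSP90AA1 (222.2 ± 0.942), each gap being larger than these SDs. HSF1 moved from rank 10 (80.3 FPKM) to rank 6 (119.3 FPKM), and STIP1 from rank 6 (152.4 FPKM) to rank 11 (51.3 FPKM).

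**Figure D4:**
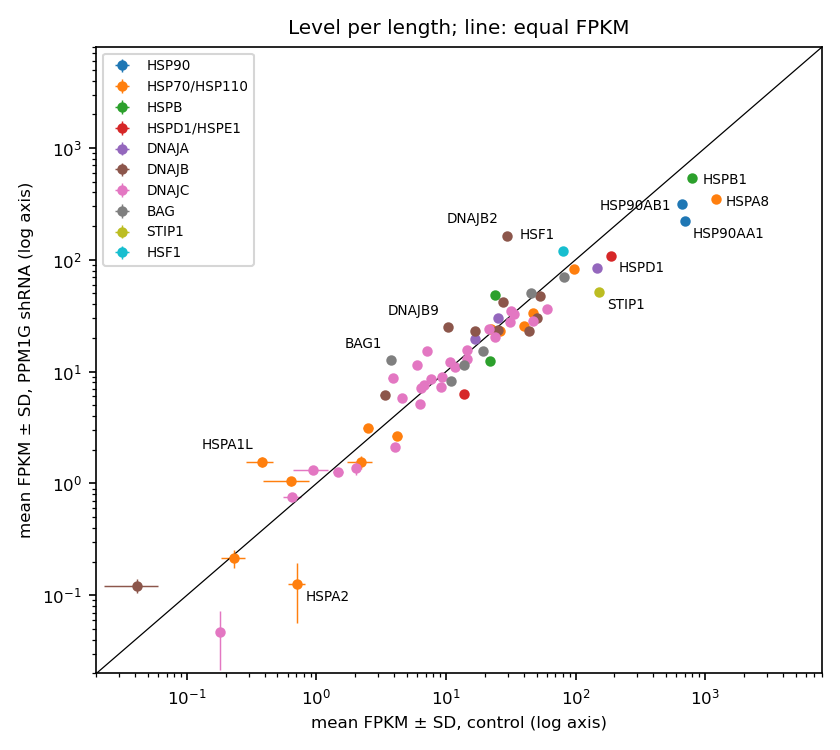
Mean FPKM with SD in the control libraries (horizontal, log axis) against the PPM1G shRNA libraries (vertical, log axis), 1 point per tested member coloured by family, with a line at equal FPKM. The members with the highest control levels (HSPA8, HSPB1, HSP90AA1 and HSP90AB1) all lie below the line, and DNAJB2 lies far above it.

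The partners of these chaperones outside the rule were read from the same fit. Of 14 HSP90 co-chaperones, 8 fell, 1 rose and 5 were not called, with a median log2 fold change of -0.35. The share called was 64.3%, below the 82.9% of all tested genes. The share that fell was 57.1%, next to 41.3% of all tested genes. The ATPase activator AHSA1 measured 252.5, 248.6 and 250.2 CPM in controls and 81.0, 86.6 and 82.3 CPM in shRNA libraries (log2 fold change -1.59, SE 0.03). CACYBP, which resembles the co-chaperone SUGT1 in part of its fold, fell by 1.52 (SE 0.05) from 151.4 ± 6.22 CPM (SD, n = 3) to 52.8 ± 3.80 CPM. These falls were of the same order as those of HSP90AA1 and STIP1.

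Of 7 HSP70 partners, 5 fell, 1 rose and 1 was not called, with a median of -0.39. The share called was 85.7% and the share that fell 71.4%, next to 82.9% and 41.3% of all tested genes. TTC4, an adaptor with the same kind of repeat as STIP1, fell by 0.94 (SE 0.04), and the exchange factor HSPBP1 fell by 0.93 (SE 0.09) from 16.7 ± 1.36 CPM (SD, n = 3) to 8.80 ± 0.996 CPM. Of HSF2, HSF4, HSBP1 and CRYAB, 3 rose and 1 fell, next to 41.5% and 41.3% of all tested genes. The factors HSF2 and HSF4 rose by 0.24 (SE 0.04) and 0.90 (SE 0.12). HSBP1, which binds HSF1 and holds it back, fell by 1.39 (SE 0.04) from 94.2 ± 3.05 CPM (SD, n = 3) to 35.9 ± 0.724 CPM. CRYAB, a small heat shock protein of muscle and lens, rose by 1.59 (SE 0.50) on 17 counts in all controls and 54 in all shRNA libraries.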

How the data were processed

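RNA was sequenced from 3 control and 3 PPM1G shRNA libraries. Whole-number counts per gene and library were deposited, which the values show to be unnormalized. The authors also deposited FPKM values, which equal count per length and library total. The build was GRCh38, per the submitters' processing notes. Aligner, counter, annotation and strand setting: not given in the sources used here. Totals of 31337553 to 35838246 counts were enough to test 68 members, and counting error is largest for members with few counts.

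All genes were fitted with edgeR 4.0.16 (limma 3.58.1, R 4.3.3): filterByExpr with a minimum count of 10, TMM factors, robust quasi-likelihood fit with group as the only term, and the quasi-likelihood F-test with Benjamini-Hochberg adjustment over all tested genes, threshold 0.05. The fit was tested on simulated data. Each SE was taken as the size of the log2 fold change over the square root of F. Fold changes are PPM1G shRNA over control. CPM is TMM-scaled and FPKM follows plain totals. Alternatives were other size factors, DESeq2 1.42.0, limma on log2(FPKM + 1) and log2(FPKM + 0.1), other filters, a replicate block, and leaving out each library.

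Every member may be named. Values per library are given for called members with an absolute log2 fold change of at least 1 and at least 5 CPM on average, and for the member with the highest FPKM in each family. Up to 2 called genes are named per partner list, plus PPM1G. A partner gene taken by this rule is not reported here. Values per library of low-count members were added after they were seen. The members, families and lists were chosen with earlier results of these data known. Promoters, loci and pseudogenes came from RefSeq (GRCh38.p14), where all 76 members matched by Entrez ID, and 100-base windows from GENCODE transcripts.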

Additional observations from a re-analysis of the deposited data

How the results depend on the processing

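No called member changed direction under any alternative. Of 950 member values under alternatives, 892 kept direction and side of the threshold, 23 lost the call, 33 gained it, and 2 changed sign without a call (DNAJC14, 0.02 with all libraries, ranged from -0.0166 to 0.0711 with 1 left out, and was -0.001 without control replicate 3). Plain library totals and limma on FPKM, which both use plain totals, raised rises: members from 18 to 27 and to 28 in both limma fits, heat-inducible members from 1 to 2 in all 3, DNAJC genes from 4 to 11 and to 12, and BAG genes from 1 to 2. HSPA8's share differed by -24.3 points in CPM, which is not per length. Leaving out 1 library gave 16 to 20 rises and 37 to 38 falls among members, 0 to 2 rises among heat-inducible members (all 12 falls kept), 4 to 6 among DNAJC and 1 to 2 among BAG genes. Same-numbered libraries did not deviate together (correlations 0.014, -0.02 and 0.004). The labels state no pairing, and a pairing with little shared effect could look the same. The replicate block gave 10805 calls over all genes against 10821, and 18 rises and 38 falls among members, with all 56 calls shared. Depth limits HSPA2, HSPA1L, HSPA6, DNAJB13 and DNAJC5B, whose values rest on few reads.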

Other observations

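Other protein quality control genes were read from the same fit (edgeR's quasi-likelihood F-test). Of 8 genes of mitochondrial quality control, 5 fell, 2 rose and 1 was not called. The share called was 87.5% and the share that fell 62.5%, next to 82.9% and 41.3% of all tested genes. TRAP1, the mitochondrial HSP90, was lower with its cytosolic relatives, at 93.5 ± 0.193 CPM (SD, n = 3) in controls and 43.2 ± 0.167 CPM in shRNA libraries (log2 fold change -1.11, SE 0.04). The disaggregase CLPB fell by 0.91 (SE 0.06), from 54.5 ± 2.38 CPM to 28.9 ± 2.25 CPM. Of 6 prefoldin subunits, which hand nascent actin and tubulin to the cytosolic chaperonin, 5 fell and PFDN1 was not called. The falls made up 83.3% of the list, next to 82.9% called and 41.3% fallen among all tested genes. VBP1 fell by 1.05 (SE 0.05) and PFDN6 by 0.62 (SE 0.06).

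Of 4 J-domain proteins without a DNAJ symbol, 2 rose and 2 fell, with a median log2 fold change of 0.10. The share called was 100%, next to 82.9% of all tested genes. Falls and rises made up 50% each, next to 41.3% and 41.5% of all tested genes. The 2 named here, HSCB and GAK, are the rises. HSCB is also among the rises counted above for mitochondrial quality control. HSCB, the co-chaperone of iron-sulfur cluster assembly in mitochondria, rose by 0.68 (SE 0.12), from 5.53 ± 0.961 CPM (SD, n = 3) to 8.88 ± 0.655 CPM. GAK, the ubiquitous relative of the auxilin DNAJC6, rose by 0.68 (SE 0.03), from 175.2 ± 9.96 CPM to 280.7 ± 4.47 CPM. GAK was chosen after its values were seen.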
